A study of Mus musculus with 13 samples.

Results

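The genes of 5 families of drug-metabolising enzymes were followed across liver cell populations of the mouse. The members were all genes measured by a probe set with 1 mapped symbol beginning Ugt, Sult, Fmo, Ces or Ephx and then a digit, each gene taken from its probe set with the highest mean. They numbered 52 of the 19537 genes on the arrays, namely 16 Ces, 16 Sult, 11 Ugt, 5 Fmo and 4 Ephx genes. Expression was measured on 13 arrays of total RNA from cells of naive C57BL/6 mice aged 6 to 10 weeks, with no other genotype or agent. Hepatocytes, the parenchymal cells, had 3 arrays, Kupffer cells, the liver macrophages, had 3, and liver sinusoidal endothelial cells (LSEC) had 3, all freshly sorted. Stellate cells of the liver (HSC), which store retinoids, had been grown in medium with serum, with 2 arrays after 1 day and 1 array each after 7 and 14 days, and no uncultured HSC were analysed here. Population and culture therefore cannot be told apart wherever HSC are compared with the sorted cells.

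The 5 families carry out linked steps in the clearance of drugs, hormones and lipids. Flavin-containing monooxygenases (Fmo) add oxygen to nitrogen and sulfur atoms in the endoplasmic reticulum, carboxylesterases (Ces) cut ester bonds of drugs and of stored lipid, and epoxide hydrolases (Ephx) open reactive epoxides to diols. UDP-glucuronosyltransferases (Ugt) and sulfotransferases (Sult) attach a sugar acid or a sulfonate group, which makes the product soluble and ready for bile or urine. Hepatocytes are the main site of these reactions in the liver.

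Values are probe-set intensities on a linear scale with array medians between 216 and 233, and differences are on the scale log2(intensity + 82.7), where the added constant is the pooled 20th percentile. A log2 difference of a dim gene is made smaller by that constant. Genes entered the tests if they read above 224.5, the pooled median, on at least 2 arrays, which 31 of the 52 members did. The last inside was Ces5a, with a second-highest reading of 234, and the first outside was Ces2b at 224.3. A gene was called where limma's adjusted p was below 0.05 and the log2 difference was at least 1. Shares of all genes given beside counts of calls are of the genes that passed the filter. These were 12081 between populations and 12368 in culture, and the matching base for members is 31. Arrays of 1 group are labelled as biological replicates, apart from the lone arrays of 7-day and 14-day HSC. Whether these were separate animals is not given in the sources used here, so the p-values measure the spread between these arrays, and their small number limits the precision. Most marker genes of the named populations fitted their labels. All 17 measured hepatocyte markers and all 9 Kupffer cell markers were called higher on their own arrays. So were 8 of 9 LSEC markers, all but Clec4g, and 7 of 9 HSC markers, all but Lrat and Hgf. Clec4g read 3029, 2503 and 943.5 in LSEC and 811.7 to 1504 in Kupffer cells. Lrat read 257.3 and 353.5 in 1-day HSC and 182.9 to 323 in Kupffer cells. Hgf read 1196 and 1479 in 1-day HSC and 796.4 to 1286 in Kupffer cells. The LSEC markers summed to 51710, 47970 and 30690 on LSEC replicates 1 to 3, so replicate 3 stood lower than the others of its group. On the 1-day HSC arrays the Kupffer cell markers summed to 2492 and 3554, against 1263 to 1723 in hepatocytes. The LSEC markers summed to 4521 and 4872 there, against 1785 to 2360 in hepatocytes. The 5 measured lymphocyte markers summed to 2544, 1521 and 2186 in Kupffer cells and 517.7 to 656.6 elsewhere. The 5 measured markers of bile duct cells summed to 1812, 2407 and 3053 in hepatocytes and 693 to 1468 elsewhere. In hepatocytes Sox9 alone read 1294, 1840 and 2514, and Epcam read 168.9 to 175 against 74.8 to 118.5 elsewhere. Krt7 read 185 to 206 in hepatocytes and 180.4 to 259.3 elsewhere. Krt19 was highest in 7-day HSC (559.5) and Cftr in LSEC (68.6 to 110.3). Cd79b was called higher in Kupffer cells and Sox9 in hepatocytes, and Cd3e was not called. The part of such cells in the other readings was not tested.

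The families were mostly hepatocyte genes. In hepatocytes 27 of the 52 members, of which 31 were tested, were called higher than in all 3 other populations. Of all genes tested 6.8% were. The 27 were 10 Ces, 10 Ugt and 5 Sult genes, Ephx2 and Fmo5. No tested member was called lower, against 2.72%. Most of the 31 passed the filter only through their hepatocyte arrays, so a lower call was not open to them. For the same reason the count of higher calls was largely set by the filter, and the 6.8% does not allow for this. Over all 52 members and with no filter, the median log2 difference of hepatocytes from the mean of the other populations was 1.93, against 0.017 over all 19537 genes. The same medians were -0.50 and -0.00014 for Kupffer cells, -0.69 and -0.019 for LSEC, and -0.53 and -0.045 for 1-day HSC. Every hepatocyte array read above each of the other 10 arrays for 33 of 52 members, against 13.3% of all 19537 genes, with no filter. In bulk samples of this kind, fewer cells of a type and less RNA per cell cannot be told apart.

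**Figure D1:**
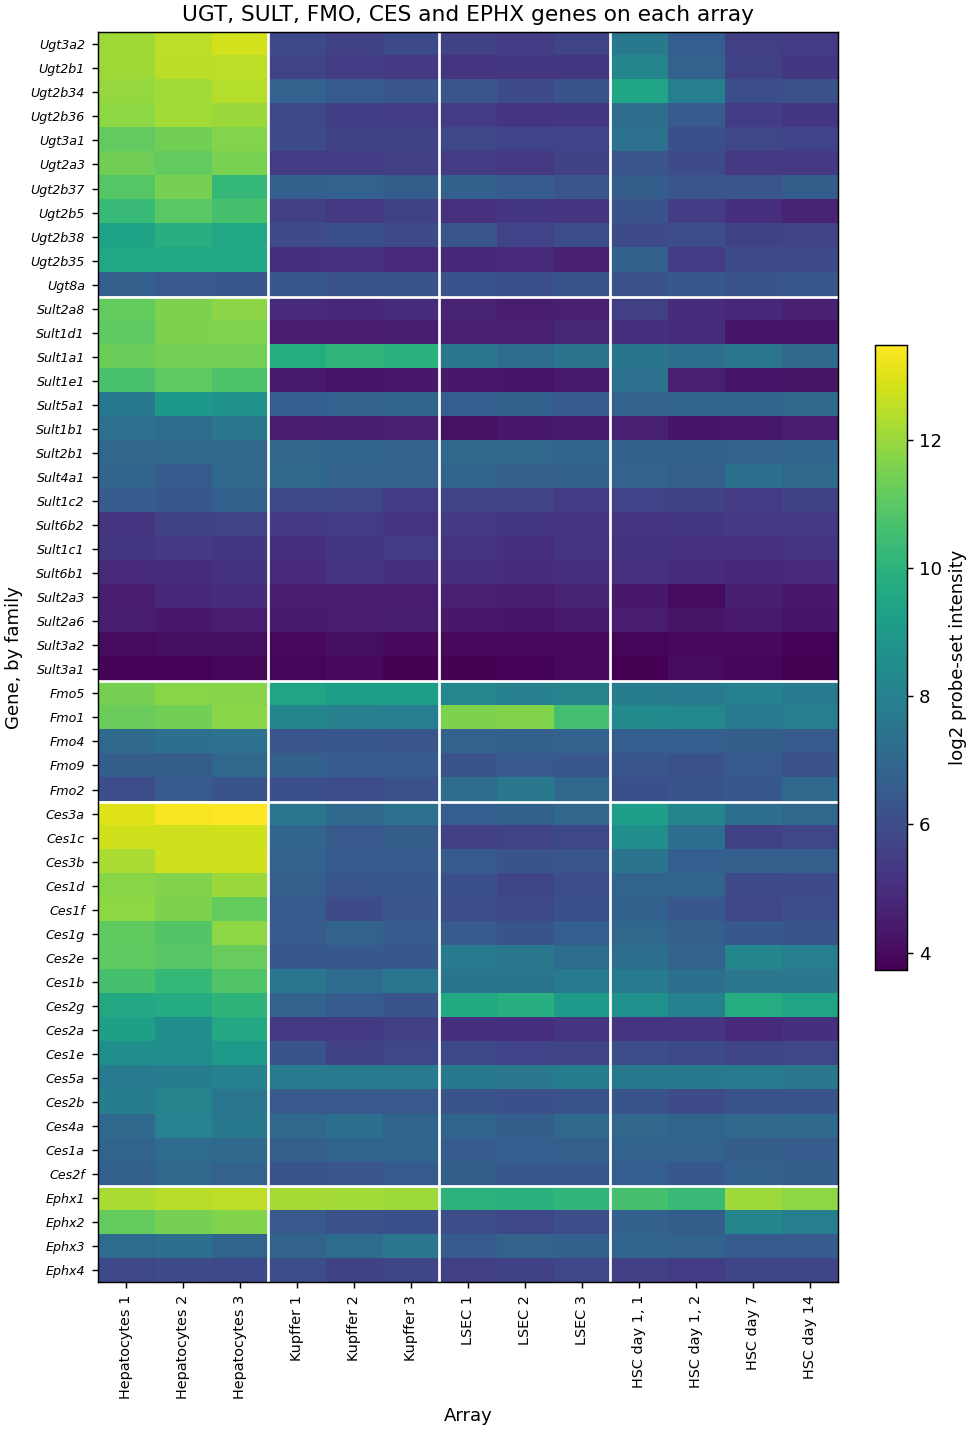
Log2 probe-set intensity (colour) of the 52 members (rows, by family and then by hepatocyte mean) on each of the 13 arrays (columns). The 3 hepatocyte columns are the brightest for most rows, while Fmo1 and Ces2g are also bright in LSEC and Ephx1 in Kupffer cells and in HSC after 7 and 14 days.

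Against single populations, 29 members were higher in hepatocytes than in Kupffer cells (12% of all genes), 28 than in LSEC (10%) and 30 than in 1-day HSC (10.1%). By limma 0 of the 31 members that passed the filter were lower in hepatocytes than in Kupffer cells, LSEC or 1-day HSC. Over all genes tested the shares were 13.7%, 12.5% and 12.3%. Most of the 31 passed the filter only through their hepatocyte arrays, such as Ugt2a3 and Ces1d, with at most 78.8 and 118.6 elsewhere. A lower call was not open to such members, so this 0 was largely fixed by the filter. The same filter favoured the counts of higher calls. Among these 31 the count was 0 also at an unadjusted p below 0.05 and 0 with a trended and robust fit, and Fmo2, which did not pass the filter, is described with the dim members. For the 27 genes called against each population, the log2 difference from the nearest population had a median of 3.68. The nearest population was 1-day HSC for 20 of them, Kupffer cells for 5 and LSEC for 2.

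Of the 11 Ugt genes, 10 were called hepatocyte-high, that is higher in hepatocytes than in all 3 other populations, with log2 differences from the nearest between 2.43 (Ugt2b35) and 4.65 (Ugt3a2). Ugt2b enzymes conjugate steroids, bile acids and many drugs. Ugt2b1 read 4358, 5639 and 5791 in hepatocytes, between 36.7 and 52.9 on the Kupffer cell and LSEC arrays, and 286 and 112 in 1-day HSC. Hepatocyte arrays thus stood far from the rest, and the log2 difference from 1-day HSC was 4.31 (SE 0.206, adjusted p = 2.8e-09). Ugt2b34 read 3874, 4495 and 5331 in hepatocytes, between 64.5 and 110.5 in Kupffer cells and LSEC, and 716 and 247 in 1-day HSC. The 1-day HSC arrays were apart from each other here, and the log2 difference from them was 3.17 (SE 0.268, adjusted p = 5.5e-07). Ugt2b36 read 3668, 4508 and 4092 in hepatocytes and at most 151 elsewhere, and its log2 difference from 1-day HSC was 4.36 (SE 0.122). Ugt2b37 had the most uneven hepatocyte readings of the Ugt genes described here, at 1908, 2888 and 1194, all above the highest reading elsewhere of 113 (log2 difference from Kupffer cells 3.39, SE 0.219, adjusted p = 9e-08). Ugt2b5 lay between 1298 and 2016 in hepatocytes and at or below 75.2 elsewhere.

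The RefSeq annotation places Ugt2b34, Ugt2b1, Ugt2b35, Ugt2b36, Ugt2b5, Ugt2b37, Ugt2a3 and Ugt2b38 side by side on chromosome 5, and all 8 were called higher in hepatocytes. Ugt2a3 lay between 2258 and 2964 in hepatocytes and at or below 78.8 elsewhere, a log2 difference from 1-day HSC of 4.14 (SE 0.106, adjusted p = 2.5e-11). The Ugt3a enzymes are known in humans to transfer sugars other than glucuronic acid. Ugt3a2 read 4343, 5811 and 7167 in hepatocytes, between 45.4 and 60.2 in Kupffer cells and LSEC, and 203 and 99.8 in 1-day HSC (log2 difference 4.65, SE 0.195, adjusted p = 9e-10). Its neighbour Ugt3a1 read 2262, 2717 and 3225 in hepatocytes, and 168 and 69.1 in 1-day HSC (log2 difference 3.84, SE 0.182). Ugt8a, which makes the galactolipids of myelin, was the Ugt gene that did not enter the tests, at 84.0 to 104 in hepatocytes and 69.8 to 84.3 on the other arrays. Members of such families are alike in sequence, and how far their probe sets read each other's transcripts was not tested.

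Among the 16 Sult genes, 5 were hepatocyte-high and 11 did not enter the tests. Sult2a8, a bile acid sulfotransferase of the mouse, read 2298, 3011 and 3488 in hepatocytes and between 22.7 and 47.9 on the other 10 arrays. Its log2 difference from 1-day HSC was 4.61 (SE 0.137, adjusted p = 5.8e-11). Sult1d1, which acts on catecholamines, read 2133, 3043 and 3063 in hepatocytes and between 19.6 and 34.2 elsewhere, a log2 difference of 4.59 (SE 0.129, adjusted p = 3.9e-11). Both genes were near the floor of the arrays outside hepatocytes. Sult1e1, the oestrogen sulfotransferase, read 1635, 2148 and 1750 in hepatocytes and between 19.5 and 21.9 in Kupffer cells and LSEC. Its 1-day HSC arrays read 169 and 24.3, so replicate 1 alone stood above that floor (log2 difference of hepatocytes from 1-day HSC 3.54, SE 0.253, adjusted p = 1.1e-07). Sult5a1 had the smallest called difference, at 204, 483 and 417 in hepatocytes and 112 and 120 in 1-day HSC (log2 difference 1.13, SE 0.211, adjusted p = 0.00047). With the pooled median as the added constant it was 0.77 and missed the minimum.

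Of the 16 Ces genes, 10 were hepatocyte-high, by 1.77 (Ces1e) to 4.86 (Ces3b) on the log2 scale. Ces3b read 4803, 7072 and 7051 in hepatocytes, between 76.1 and 109.8 in Kupffer cells and LSEC, and 177 and 99.5 in 1-day HSC (log2 difference from 1-day HSC 4.86, SE 0.173, adjusted p = 2.4e-10). Its neighbour Ces3a read 8285, 10710 and 11410 in hepatocytes and 575 and 297 in 1-day HSC, a log2 difference of 4.34 (SE 0.201, adjusted p = 2e-09). Ces3a also lay between 98.9 and 188 in Kupffer cells and LSEC. Both genes lie side by side on chromosome 8, and their hepatocyte arrays were far above all others.

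The Ces1 genes form a run of 7 neighbours from Ces1a to Ces1g on chromosome 8, and 6 of them were called higher in hepatocytes, all but Ces1a, which did not enter the tests. Ces1c, an esterase secreted into mouse plasma, read 7002, 6788 and 6939 in hepatocytes and 386 and 154 in 1-day HSC (log2 difference 4.39, SE 0.205, adjusted p = 2.2e-09). Ces1d, a triacylglycerol hydrolase that takes part in lipoprotein assembly, read 3452, 3157 and 4105 in hepatocytes and between 55.2 and 119 elsewhere (log2 difference from 1-day HSC 4.18, SE 0.109). Ces1f lay between 2316 and 3615 in hepatocytes, with at most 107 elsewhere. Ces1g, which acts in lipid handling, lay between 1858 and 3666 in hepatocytes, with at most 130.5 elsewhere. Ces1a was dim throughout, at 116 to 139 in hepatocytes and 93.9 to 117 on the other arrays.

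In the Ces2 group, Ces2a and Ces2e were hepatocyte-high and Ces2g was not. Ces2a, a lipase of mouse liver and gut, read 617, 386 and 785 in hepatocytes and between 30.0 and 48.3 elsewhere (log2 difference from Kupffer cells 2.38, SE 0.165, adjusted p = 1.8e-07). Ces2e read 2128, 1999 and 2362 in hepatocytes, 207, 199 and 144 in LSEC, and between 82.5 and 86.2 in Kupffer cells. LSEC was thus its nearest population (log2 difference 3.08, SE 0.107, adjusted p = 2.3e-10). Ces5a hardly differed between populations, at 213 to 259.8 in hepatocytes and 198.5 to 228 on the other arrays, and was not called.

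Fmo5 and Ephx2 were the remaining genes called. Fmo5, an Fmo enzyme known for inserting oxygen next to ketones, read 2865, 3456 and 3382 in hepatocytes and 687, 594 and 585 in Kupffer cells (log2 difference 2.23, SE 0.0947, adjusted p = 4e-10). LSEC read 302, 253 and 274 and 1-day HSC 228 and 209.7, so no group overlapped with hepatocytes. Ephx2, the soluble hydrolase of epoxy fatty acids, read 2312, 2852 and 3172 in hepatocytes, between 57.4 and 86.8 in Kupffer cells and LSEC, and 106 and 97.1 in 1-day HSC. Its log2 difference from 1-day HSC was 3.95 (SE 0.116, adjusted p = 5.5e-11).

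**Figure D2:**
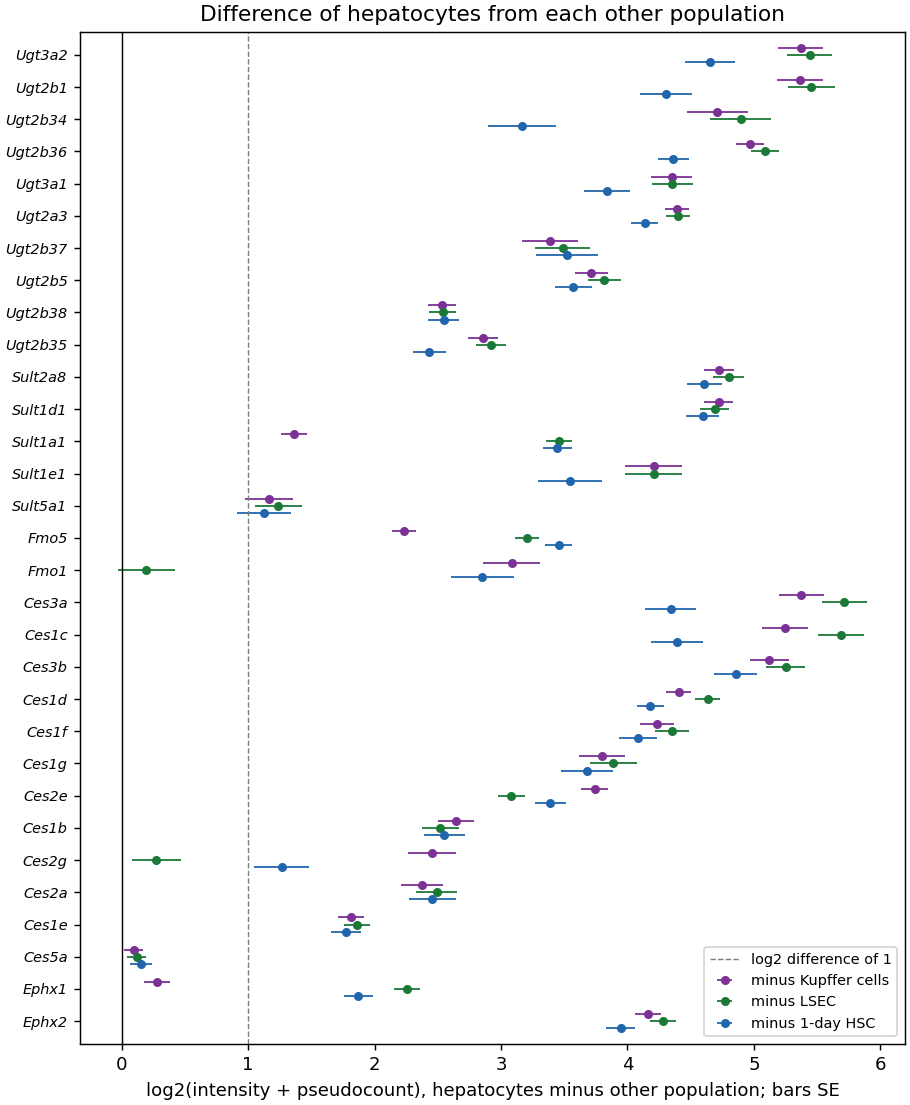
Log2 difference of hepatocytes (3 arrays) from Kupffer cells (3), LSEC (3) and 1-day HSC (2) for the 31 members tested; points are fitted differences, bars are SE and the dashed line marks the minimum of 1. Fmo1 and Ces2g lie near 0 against LSEC (0.19 and 0.27), Ephx1 near 0 against Kupffer cells (0.28), and Ces5a near 0 against all 3.

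Promoter sequences are shown for 3 hepatocyte-high genes of different families and for 2 genes that were also bright elsewhere, chosen after their values and motifs were seen. They come from RefSeq on GRCm38.p6, run 5′ to 3′ on the strand of the gene from 250 bases before its start to 50 after, and are in lower case. Capitals mark GTTAAT, the core bound by the hepatocyte factor HNF1, or TATAAA, the TATA box, found on either strand (TTTATA is the TATA box read on the opposite strand).
Ces3b, chr8:105083505-105083804, plus strand: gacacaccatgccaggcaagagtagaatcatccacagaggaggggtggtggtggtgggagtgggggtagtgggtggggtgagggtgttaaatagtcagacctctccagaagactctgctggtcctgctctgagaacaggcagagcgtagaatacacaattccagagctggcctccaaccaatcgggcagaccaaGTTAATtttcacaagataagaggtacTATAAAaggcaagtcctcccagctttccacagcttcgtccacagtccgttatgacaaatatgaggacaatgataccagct
Ugt2a3, chr5:87337146-87337445, minus strand: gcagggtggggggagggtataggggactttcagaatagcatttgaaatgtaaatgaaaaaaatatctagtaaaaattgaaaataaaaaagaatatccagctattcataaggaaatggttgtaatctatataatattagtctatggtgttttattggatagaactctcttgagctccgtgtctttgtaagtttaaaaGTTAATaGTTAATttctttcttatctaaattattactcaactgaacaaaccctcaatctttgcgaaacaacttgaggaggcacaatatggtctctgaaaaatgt
Sult1d1, chr5:87568957-87569256, minus strand: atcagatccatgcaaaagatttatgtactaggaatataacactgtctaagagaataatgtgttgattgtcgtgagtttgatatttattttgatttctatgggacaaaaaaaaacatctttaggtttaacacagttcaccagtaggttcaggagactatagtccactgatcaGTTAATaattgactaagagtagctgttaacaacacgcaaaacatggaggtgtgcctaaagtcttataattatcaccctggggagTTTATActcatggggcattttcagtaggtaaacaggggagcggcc
Ephx1, chr1:181017520-181017819, minus strand: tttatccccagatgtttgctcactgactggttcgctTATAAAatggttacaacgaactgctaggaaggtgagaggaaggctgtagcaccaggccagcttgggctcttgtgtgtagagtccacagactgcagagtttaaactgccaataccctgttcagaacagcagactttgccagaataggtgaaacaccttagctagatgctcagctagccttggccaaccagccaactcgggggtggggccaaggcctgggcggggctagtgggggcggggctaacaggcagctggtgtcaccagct
Ces2g, chr8:104961468-104961767, plus strand: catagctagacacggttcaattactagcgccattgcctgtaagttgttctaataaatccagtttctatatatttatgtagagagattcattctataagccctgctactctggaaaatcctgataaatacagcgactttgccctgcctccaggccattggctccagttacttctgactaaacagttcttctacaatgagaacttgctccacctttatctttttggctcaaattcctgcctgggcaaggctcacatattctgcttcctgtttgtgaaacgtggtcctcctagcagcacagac

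Ces3b held GTTAAT beginning 56 bases before its start and TATAAA 30 before it. Ugt2a3 held GTTAAT at 54 and again at 47 bases before its start, while Sult1d1 held it at 79 before and the TATA letters 6 bases after. The Ephx1 window held TATAAA at 214 bases before the start and no GTTAAT, and the Ces2g window held neither. Windows were given for 44 of the 52 members, some with several starts, which made 50 windows. GTTAAT occurred in 18% of these and in 20.8% of the 24 windows of hepatocyte-high genes, against 7.1% of all 32851 windows. The hepatocyte-high genes with it were Ces3b, Sult1a1, Sult1d1, Ugt2a3 and Ugt3a1. It was also in windows of Ces5a, which was not called, and of Sult2a3, Sult2a6 and Sult3a2, which did not enter the tests, so the printed windows do not stand for all members. TATAAA occurred in 26% of member windows, 29.2% of hepatocyte-high windows and 13.6% of all. The HNF4-type letters CAAAGTCC were in 4% of member windows, 0 of the 24 hepatocyte-high windows and 1.42% of all, and CAAAGGTC in 0 of the member windows and 1.17% of all. In the printed windows no match overlapped another. These are matches of letters in a short window and were not tested as sites.

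Outside hepatocytes, Fmo1 stood out in LSEC. Fmo1, which oxygenates amine drugs, read 2414, 2697 and 3473 in hepatocytes and 3042, 3208 and 1521 in LSEC. These groups overlapped, and the log2 difference of hepatocytes from LSEC was 0.19 (95% interval -0.30 to 0.68, adjusted p = 0.46). Without LSEC replicate 3, the array with the low marker sum, it was -0.14. Kupffer cells read 291, 251.2 and 241 and 1-day HSC 331 and 310.1, both below every LSEC array. Kupffer cells were lower than LSEC by a log2 difference of -2.89 (SE 0.225, adjusted p = 2.2e-07), and LSEC were higher than 1-day HSC by 2.66 (SE 0.252, adjusted p = 3.8e-06). On the LSEC arrays the hepatocyte markers had a median of 0.986% to 1.08% of their hepatocyte mean, and Fmo1 was at 90.5% of its own. The LSEC markers summed to 1785 to 2360 on the hepatocyte arrays. The part of RNA from the other population in these readings was not tested.

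The other gene shared with LSEC was Ces2g. It read 782, 838 and 1066 in hepatocytes, 112, 96.1 and 76.9 in Kupffer cells, 802, 915 and 502 in LSEC, and 399 and 256 in 1-day HSC. Hepatocytes and LSEC overlapped, with a log2 difference of 0.27 (95% interval -0.14 to 0.69, adjusted p = 0.22), or 0.047 without LSEC replicate 3. Ces2g was the 1 member called lower in Kupffer cells than in each other population, against 2.28% of all genes. The difference of Kupffer cells was -1.19 from 1-day HSC (SE 0.215, adjusted p = 0.00034) and -2.18 from LSEC (SE 0.192, adjusted p = 7.2e-07). The call was lost without 1-day HSC replicate 1. Kupffer cells were lower than LSEC for these 2 members, Fmo1 and Ces2g, against 10.3% of all genes. Fmo1 was the 1 member higher in LSEC than in 1-day HSC, against 5.24%.

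Kupffer cells shared Ephx1, and in part Sult1a1 and Fmo5, with hepatocytes. Ephx1, the microsomal epoxide hydrolase that detoxifies polycyclic and drug epoxides, read 4841, 5561 and 5856 in hepatocytes, 4647, 4482 and 4215 in Kupffer cells, 1049, 996 and 1149 in LSEC, and 1587 and 1265 in 1-day HSC. Hepatocytes and Kupffer cells did not overlap, yet the log2 difference was 0.28 (95% interval 0.055 to 0.50, adjusted p = 0.029), below the minimum for a call. Kupffer cells were higher than LSEC by 1.98 (SE 0.102, adjusted p = 3.9e-09) and than 1-day HSC by 1.59 (SE 0.114, adjusted p = 9.6e-08). Sult1a1, which sulfonates phenols, read 2535, 2800 and 2755 in hepatocytes, 876, 1147 and 989 in Kupffer cells, and between 146 and 189.5 in LSEC and 1-day HSC. It was called higher in hepatocytes than in Kupffer cells (log2 difference 1.36, SE 0.103, adjusted p = 1.1e-07) and higher in Kupffer cells than in LSEC (2.09, SE 0.103, adjusted p = 2.6e-09).

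Ephx1 and Sult1a1 were the 2 members higher in Kupffer cells than in LSEC, against 9.54% of all genes, and with Fmo5 the 3 higher than in 1-day HSC, against 11.7%. As a share of the hepatocyte mean, Kupffer cells had 82.1% for Ephx1, 37.2% for Sult1a1 and 19.2% for Fmo5. On the same arrays the hepatocyte markers had a median of 2.39%, 1.29% and 1.87% of theirs. The part of hepatocyte RNA in these shares was not tested. By limma 0 of the 31 members that passed the filter were higher in Kupffer cells, in LSEC or in 1-day HSC than in each other population. Over all genes tested the shares were 6.53%, 2.35% and 2.59%. Most of the 31 passed the filter only through their hepatocyte arrays, so such a call was not open to them. Fmo2, with its highest mean in LSEC, did not pass the filter. Among these 31 the counts were 0 also at an unadjusted p below 0.05 in all 3 contrasts and 0 with the trended and robust fit. None of the 31 was called lower in LSEC or in 1-day HSC than in each of the others, against 0.406% and 0.281% of all genes, and 0 were with the trended and robust fit. At an unadjusted p below 0.05 and no minimum difference, 3 members were lower in LSEC (Ces1c, Ces1d and Ephx1) and 1 in 1-day HSC (Fmo5).

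**Figure D3:**
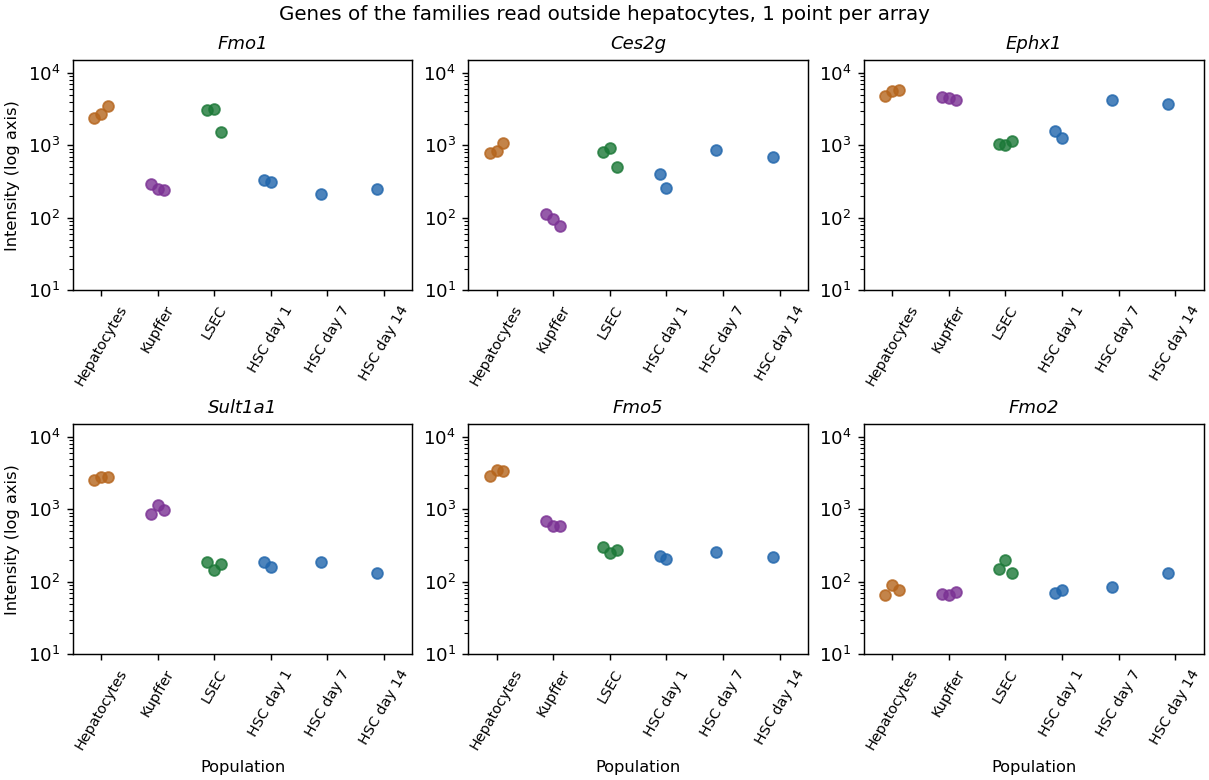
Intensity (log axis) of 6 members with readings outside hepatocytes, by population, 1 point per array. Fmo1 and Ces2g overlap between hepatocytes and LSEC, Ephx1 is high in Kupffer cells (4215 to 4647) and again in HSC after 7 days (4221) and 14 days (3661), and Fmo2 is dim, with LSEC at 131 to 199.9 and the 14-day HSC array at 133.8.

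The 21 members below the filter read between 13.3 and 271 on all arrays. Their highest mean was in hepatocytes for 15 and in Kupffer cells for 5 (Ephx3, Sult2a6, Sult3a1, Sult4a1 and Sult6b1). Near ties at low readings were among these 5. Sult2a6 had means of 22.45 in Kupffer cells and 22.44 in hepatocytes, and Sult3a1 of 14.83 in Kupffer cells and 14.77 in 1-day HSC. Sult6b1 lay between 28.3 and 36.9 on all arrays. LSEC had the highest mean for 1. That 1 was Fmo2, the main Fmo of lung, which read 66.3, 91.5 and 76.0 in hepatocytes, 149.5, 199.9 and 131 in LSEC, and 65.1 to 71.9 in Kupffer cells. Its HSC arrays read 70.0 and 76.8 at 1 day, 83.8 at 7 days and 133.8 at 14 days, and the 14-day array thus lay above the lowest LSEC array. Its neighbour Fmo1 was likewise high in LSEC, though Fmo4, on the other side of Fmo1 on chromosome 1, read 137, 162 and 168 in hepatocytes against 107 to 111 in LSEC. In a fit with no filter, the log2 difference of hepatocytes from LSEC for Fmo2 was -0.59 (SE 0.0959, adjusted p = 0.00049). LSEC also differed from 1-day HSC by 0.63 (adjusted p = 0.0014) and Kupffer cells from LSEC by -0.67 (adjusted p = 0.00022), so all 3 differences passed on p and missed the minimum of 1. That fit added Sult1b1 to the genes higher in hepatocytes, at 169, 147 and 196 in hepatocytes and 18.2 to 24.3 elsewhere (log2 difference from Kupffer cells 1.25, SE 0.0645).

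In 5 of the dim members, Ces2b, Ces2f, Fmo4, Sult1b1 and Sult1c2, every hepatocyte array read above every other array. Ces2b read 224.3, 271 and 188 in hepatocytes and 63.2 to 88.2 elsewhere, and Sult1c2 read 96.0, 86.2 and 105 in hepatocytes and 43.7 to 58.6 elsewhere. Neither was called against all 3 populations in the fit with no filter. The nearest population to hepatocytes was Kupffer cells for both, at 0.86 for Ces2b (adjusted p = 1e-05) and 0.39 for Sult1c2 (adjusted p = 0.00025), below the minimum of 1. Ephx3, an epoxide hydrolase of skin, read 116 to 159 in hepatocytes and 114 to 196 in Kupffer cells. Sult2b1, which sulfonates cholesterol and pregnenolone, lay between 106.5 and 134 on all arrays. Sult4a1, known from brain, lay between 94.8 and 131 on the sorted and 1-day HSC arrays, and read 163 after 7 days and 139 after 14 days of HSC culture. Ephx4 and Fmo9 lay between 43.1 and 66.7 and between 70.2 and 130.5 on all arrays. In all, 8 members read below the added constant of 82.7 on every array, so their log2 differences carry little information.

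Some hepatocyte transcripts were read on the other arrays, most on those of 1-day HSC. Albumin (Alb) read 18470, 18670 and 18560 in hepatocytes, 3374, 1027 and 2292 in Kupffer cells, 171, 235 and 278 in LSEC, 8855 and 6285 in 1-day HSC, 114 after 7 days and 113 after 14 days. The 17 hepatocyte markers summed to 202700 to 217000 on hepatocyte arrays, 10900 to 14710 in Kupffer cells, 2211 to 2451 in LSEC, 26820 and 13910 in 1-day HSC, 4689 at 7 days and 4379 at 14 days. The marker Trf alone read 7407, 7633 and 7590 in Kupffer cells, 2672 at 7 days and 2484 at 14 days. It was thus the largest part of the sums on those arrays. In LSEC Trf read 157.5 to 210, and in 1-day HSC 2920 and 1197. No marker was at 0 on any array, where the lowest reading of a hepatocyte marker was 29.0. The 27 hepatocyte-high members had median shares of their hepatocyte mean of 2.25% to 2.97% in Kupffer cells, 1.96% to 2.33% in LSEC, 5.58% and 3.25% in 1-day HSC, 2.06% at 7 days and 1.91% at 14 days. The markers had 1.29% to 2.39%, 0.986% to 1.08%, 9.95% and 4.10%, 0.926% and 0.944% on the same arrays. Replicate 1 of 1-day HSC read above replicate 2 for 24 of the 27 members and 15 of the 17 markers. The share includes the floor of each probe set, so a low share is an upper bound of the transcript's own.

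**Figure D4:**
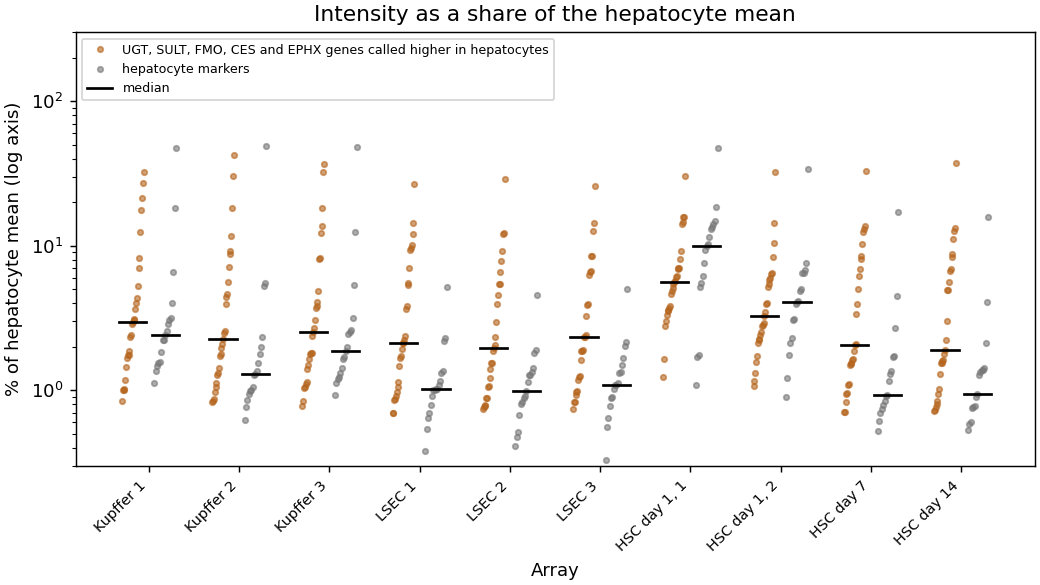
Intensity as a percentage of the gene's hepatocyte mean (log axis) on the 10 arrays outside hepatocytes, for the 27 members called higher in hepatocytes (orange) and 17 hepatocyte markers (grey); black lines are medians. Replicate 1 of 1-day HSC has the highest medians, 5.58% for members and 9.95% for markers.

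The second comparison asked how HSC after 7 and 14 days of culture, merged into a group of 2 arrays, differed from 1-day HSC. Of the 31 members tested 2 were higher (5.52% of all genes tested) and 4 were lower (4.27%). Over all 52 members and with no filter the median log2 difference was -0.041, against -0.0018 over all 19537 genes. The spread came from all groups, the sorted cells included. Ephx1 read 1587 and 1265 at 1 day, 4221 at 7 days and 3661 at 14 days. Both long cultures lay above both 1-day arrays, and the log2 difference was 1.42 (SE 0.128, adjusted p = 3.4e-06). The 7-day reading lay within the range of Kupffer cells given above and the 14-day reading below it. Ces2g read 399 and 256 at 1 day, 864 at 7 days and 686 at 14 days, a log2 difference of 1.08 (SE 0.237, adjusted p = 0.0026). It missed the minimum of 1 without 1-day HSC replicate 2 (0.83) and without the 7-day array (0.93).

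A relative of each of these genes differed in the same direction without being called, while others did not. Ephx2 read 106 and 97.1 at 1 day, 285 at 7 days and 244 at 14 days, and its log2 difference of 0.91 (SE 0.128, adjusted p = 0.00011) missed the minimum of 1. Ces2e, next but 1 to Ces2g on chromosome 8, read 151 and 113 at 1 day, 294 at 7 days and 242 at 14 days (log2 difference 0.71, SE 0.135, adjusted p = 0.00098). For Ephx1, Ces2g, Ephx2 and Ces2e the long-culture arrays lay above the 1-day arrays. Ephx3, which did not enter the tests, read 121 and 115 at 1 day, 92.8 at 7 days and 93.5 at 14 days, and Ces2a differed by -0.066 (SE 0.197, adjusted p = 0.83). The Ephx1 and Ces2g values of 1-day HSC also enter their population comparisons, so the comparisons share those arrays.

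The 4 genes lower after long culture were Ugt2b34, Ces1c, Ces3a and Ugt2b1, all of them higher in hepatocytes. Ugt2b34 read 716 and 247 at 1 day, 68.2 at 7 days and 70.4 at 14 days (log2 difference -1.76, SE 0.287, adjusted p = 0.00033). Ces1c read 386 and 154 at 1 day, 48.6 at 7 days and 55.5 at 14 days (log2 difference -1.30, SE 0.219, adjusted p = 0.00041). Ces3a read 575 and 297 at 1 day, 153 at 7 days and 131 at 14 days, a difference of -1.15. Ugt2b1 read 286 and 112 at 1 day, 49.7 at 7 days and 38.7 at 14 days, a difference of -1.08. Replicate 1 of 1-day HSC read highest for all 4, and without it only Ugt2b34 was called, at -1.12, while Ces1c was at -0.81, Ces3a at -0.76 and Ugt2b1 at -0.62.

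Most hepatocyte markers fell between the same arrays. Of 17 markers 12 were called lower after long culture, with a median log2 difference of -1.74, against -0.044 over all genes tested. Of the 27 hepatocyte-high members, 18 read lower on both long-culture arrays than on both 1-day arrays. Their median difference was -0.23, and 21 of 27 were below 0. The part of hepatocyte RNA in these 4 calls was not tested. The 4 genes were also the ones lower in LSEC than in 1-day HSC (5.61% of all genes), and Ces3a, Ugt2b1 and Ugt2b34 were, with Ces2g, the 4 lower in Kupffer cells than in 1-day HSC (12.9%). These comparisons share the 1-day arrays with the culture comparison.

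**Figure D5:**
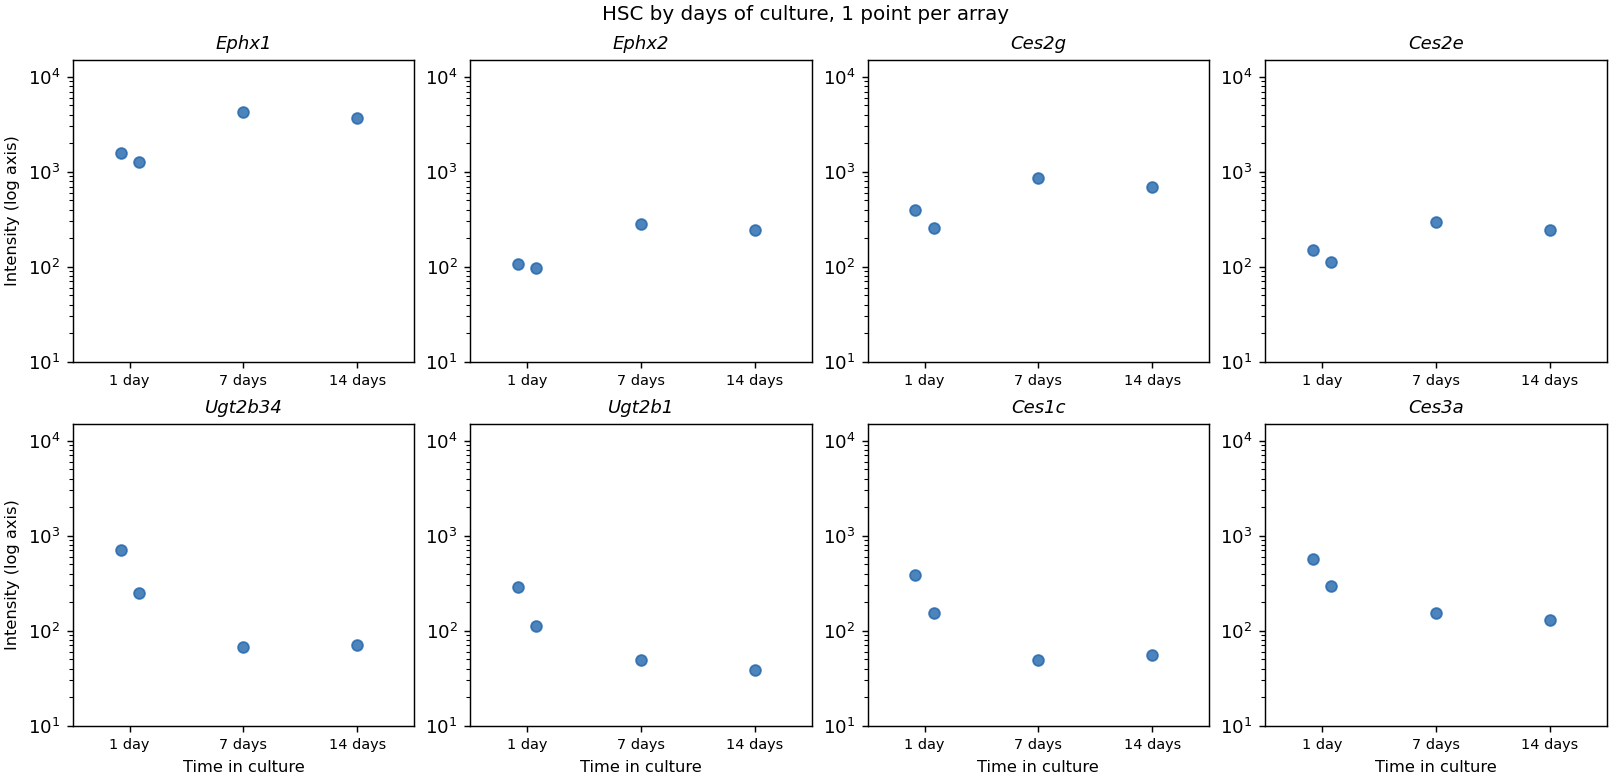
Intensity (log axis) of 8 members in HSC by time in culture, 1 point per array (2 arrays at 1 day, 1 each at 7 and 14 days). The upper row holds Ephx1, Ephx2, Ces2g and Ces2e, with both long cultures above both 1-day arrays, and the lower row the 4 genes called lower, with replicate 1 of 1-day HSC (left point) the highest.

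Genes that supply or accompany these enzymes were followed as a list of 42, of which 37 were measured and 35 tested. In hepatocytes 12 were called higher than in all 3 other populations, where 6.8% of all genes tested were. Of the 4 genes listed for supply of glucuronidation 2 were called higher in hepatocytes, namely both enzymes that make the sugar donor. The others were not called. Slc35d1 read 440.9 to 490.6 in hepatocytes and 586.5 and 608 in 1-day HSC, and Slc35b1 read 2382 to 2764 and 3173 and 3027. Ugp2, which makes UDP-glucose, read 2513, 2387 and 2444 in hepatocytes and 800, 870 and 741 in Kupffer cells (log2 difference 1.52, SE 0.0814, adjusted p = 4e-09). Ugdh, which oxidises it to UDP-glucuronic acid, read 8414, 8436 and 7199 in hepatocytes and 3684 and 2922 in 1-day HSC (log2 difference 1.26, SE 0.2, adjusted p = 0.00012). Of the 6 measured genes for supply and removal of the sulfonate donor, 0 were called higher in hepatocytes by limma or by the trended and robust fit, and 2 were higher at an unadjusted p below 0.05 (Bpnt1 and Slc26a1). Among these, Papss2, which makes that donor, read 1602, 1868 and 2634 in hepatocytes and 2226 and 2137 in 1-day HSC, so these groups overlapped.

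Of 11 measured genes for other conjugating enzymes 6 were higher in hepatocytes, including Gnmt, which methylates glycine (log2 difference from 1-day HSC 3.88), and Glyat, which joins acids to glycine (2.45). Of 9 measured regulators 3 were higher, namely the hepatocyte factor gene Hnf4a (3.69 from 1-day HSC), the fatty acid receptor gene Ppara (2.43 from 1-day HSC) and the drug receptor gene Nr1i2 (1.67 from Kupffer cells). The esterase gene Aadac was also higher, by 3.99 from 1-day HSC. Other genes of the list went another way. The regulator gene Rxra was called higher in Kupffer cells, by 1.49 from hepatocytes, as was Gusb, by 1.44. Nqo1 was called higher in 1-day HSC, by 1.04 from LSEC (SE 0.302, adjusted p = 0.014), just above the minimum of 1. It read 1337 and 1442 in 1-day HSC and was uneven in LSEC, at 336, 634 and 1145. The hydrolase gene Nceh1 read 612.8, 511.7 and 601.5 in hepatocytes and 1040 to 4717 elsewhere, with no call against each population. In the culture comparison 4 of the list were higher, against 5.52% of all genes tested, and 3 were lower, against 4.27%. Ugdh read 3684 and 2922 at 1 day, 7192 at 7 days and 6783 at 14 days (log2 difference 1.07, SE 0.214, adjusted p = 0.0014), and Ugp2 differed by 1.10 (SE 0.113). Nnmt, which methylates nicotinamide, rose by 1.29 and the lysosomal sulfatase gene Arsa by 1.03. The glutathione transferase genes Gsta3 and Gstp1 differed by -1.26 and -1.08, and the quinone reductase gene Nqo1 by -1.07 (SE 0.391, adjusted p = 0.042).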

How the data were processed

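Labelled RNA of 13 mouse liver cell samples was measured on Affymetrix arrays. The authors deposited linear intensities of 25194 probe sets, which ran from 10.6 to 28854. Affymetrix Expression Console and MAS5 5.0 stand in the submitters' processing notes without their roles, and the background correction and normalization are not given in the sources used here. Left out were 1379 probe sets mapped to several symbols and 2634 mapped to none. All 52 members matched a RefSeq gene of GRCm38.p6 by identifier.

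Genes above 224.5 on at least 2 arrays were taken as log2(intensity + 82.7) and fitted with limma 3.58.1 in R 4.3.3. The population fit used 11 arrays, 12081 genes and 7 residual degrees of freedom (prior 4.87). The culture fit merged 7-day and 14-day HSC and used 13 arrays, 12368 genes and 8 residual degrees of freedom (prior 4.47). P-values are two-sided and Benjamini-Hochberg adjusted over all genes within a contrast, and the adjusted p of a gene called against each population is the largest of its 3 contrasts. The population fit was also run on simulated normal values with known differences, and nothing reported here rests on that run. Figures were drawn with matplotlib 3.10.9.

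Named members were, in each family, the 5 with the highest hepatocyte mean, every member called in culture or outside hepatocytes, up to 2 further tested members, and 22 anchors with a probe set of 1 symbol. A few others (the ends of a range or of the filter, Sult1b1, neighbours in a run and counts of 5 or fewer) were named after their values were seen. Members, lists and this rule were chosen with earlier results of these data known. Alternatives were another added constant, no filter, median scaling, quantile normalization, a trended robust fit, averaged probe sets, other sets of arrays, a replicate block and leaving out each array. Same-numbered arrays did not deviate together (15 pairs, r from -0.11 to 0.11), so the numbers were not taken as pairs. Proteins were not analysed here.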

Additional observations from a re-analysis of the deposited data

How the results depend on the processing

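Of 288 counts recomputed under an alternative, 280 stayed within 1.5 times the reported count, and of 760 recomputed single differences 743 kept their direction and side of the threshold. Counts that moved were those of 1 to 4 members. Higher in long culture gave 1 instead of 2 with the pooled median as added constant, and 1 to 2 when single arrays were left out. Lower in long culture gave 2 instead of 4 with HSC arrays only (Ces3a and Ugt2b34), 1 with the pooled median, and 1 to 6 when single arrays were left out, with 1 without 1-day HSC replicate 1 and 6 without replicate 2. Lower in Kupffer cells gave 0 instead of 1 with the pooled median, and 0 to 1 when single arrays were left out. Without single arrays, higher in hepatocytes than each other population gave 26 to 27, than Kupffer cells 28 to 29, than LSEC 27 to 28 and than 1-day HSC 29 to 30. With no filter these were 28, 30, 29 and 32. Sign changes occurred for differences that were not called, with the cause not tested: Fmo1 in hepatocytes minus LSEC ran from -0.14 (without LSEC replicate 3) to 0.38, and in long culture Ces3b ran from -0.49 to 0.023 (without 1-day HSC replicate 1), Sult1a1 was 0.075 without the 14-day array, and Ugt2b37 ran from -0.064 (without 1-day HSC replicate 2) to 0.079 and was -0.0746 without the 14-day array. With the replicate number as a block the counts in hepatocytes were 27, 29, 28 and 30, and the block changed no call count. No paired fit of the culture comparison was possible because the 7-day and 14-day arrays carry no replicate number. The array number, and signals near the floor, limit what could be called.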

Other observations

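Probe sets mapped to several symbols of these families were not in the comparisons, and their values are given without naming a gene. The probe set for 8 Ugt1a symbols, which share their last exons and include the bilirubin-conjugating enzyme, read 1904, 2000 and 2188 in hepatocytes, 172 to 202 in Kupffer cells, 109.5 to 144 in LSEC, 196 and 156 in 1-day HSC, 199 after 7 days and 253 after 14 days. Both probe sets shared by Ugt3a1 and Ugt3a2 were high in hepatocytes, at 3026 to 4808 and 2815 to 4722, against 221 and 98.0 and 194 and 94.9 in 1-day HSC. The probe sets for 2 Ugt2a symbols and for 4 Sult2a symbols were dim on every array, at 17.7 to 30.6 and 18.2 to 22.9. Ces5a had a second probe set, which read 89.9 to 105 in hepatocytes and 80.3 to 92.1 on the other arrays, and it too showed no population apart from the rest.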
